A study of Mus musculus with 12 samples.

Results

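The 10 genes described here are immediate early and AP-1 genes, taken as every gene in a table of 54146 genes whose symbol was Fos, Fosb, Fosl1, Jun, Junb, Jund, Egr1, Atf3, Ier2 or Dusp1. All 10 were found, all reached at least 1 TPM (a level scaled by gene length and by library total) in each of the 12 libraries used, and all passed the filter for testing. No measured value entered the choice of symbols, although these genes were proposed with earlier results of the same data known.

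Immediate early genes are switched on within minutes of a growth factor, stress or injury signal by factors already present in the cell, and their transcripts decay quickly. The FOS proteins pair with JUN proteins through leucine zippers to form AP-1, which binds DNA and drives genes of proliferation, invasion and stress, while DUSP1 removes phosphate from the MAP kinases that start the response. Several of these transcripts are also known to rise when solid tissue is digested with enzymes, as the lungs were here.

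The libraries came from D2A1 cells, a mouse mammary carcinoma line, that carried a fluorescent histone label (H2B-GFP) and had been loaded with CellVue Claret, a membrane dye diluted at each division. The cells were injected into the tail vein of female mice, and sorted from digested lungs in the second week as dye-positive (dormant) or dye-negative (growing) tumor cells. KO hosts carried floxed Tgfbr2, the type II receptor for TGF-β, deleted by Cre from the Lysozyme 2 promoter, which is active in myeloid cells, whereas the other hosts are labelled WT (the study names floxed mice as the controls of this strain). There were 3 libraries for each state and host, called dormant or growing and WT or KO below. The deletion was in the host and not in the sorted cells, so Tgfbr2 itself checks no label, and it was listed between 0.14 and 11.5 TPM over the 12 libraries. The study describes the replicates as separate mice, but the labels do not tie libraries to animals, so the p-values below measure the spread between these libraries, part of which may be technical. All WT libraries were in library batch 1 and all KO libraries in library batch 2, by the column names, so that host and batch cannot be told apart in the libraries used, whereas the comparisons of states lie within a batch. The same table has 6 further columns that are named as WT libraries of batch 2 with the same sort prefixes. No label used here ties them to a sample, so they were not used, and no comparison of hosts within batch 2 was made.

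The dormant KO libraries went in part against their label as tumor cells. The summed level of 6 genes of mammary tumor lines lay between 2100.0 and 2654 TPM in dormant KO, against 30481 to 41246 TPM over the other 9 libraries, and most of it was Spp1, a secreted phosphoprotein, at 1236 to 1509 TPM against 28980 to 39951 TPM. The 6 genes did not move together. Krt8 and Vim were also lowest in dormant KO, Krt18 was at 159 to 249 TPM there and overlapped dormant WT (131 to 231 TPM), and Krt19 was highest there, at 252 to 418 TPM against at most 14.2 TPM elsewhere. Epcam was at 0.27 to 5.34 TPM in dormant KO, against at most 1.12 TPM. In the same libraries 8 markers of alveolar type 2 cells summed to 40072 to 42411 TPM, against 49.0 to 465 TPM elsewhere, and all 8 were above 0 in each dormant KO library (7 at 1 TPM or more), as against 2 to 6 of the 8 in the other groups. Markers of macrophages (3436 to 3676 TPM), neutrophils (4035 to 4358 TPM) and red cells (50831 to 56264 TPM) were also highest there, and the 8 endothelial markers were all at 1 TPM or more. The dormant WT libraries stood apart in another way, with 486 to 707 TPM in 1419 olfactory receptor genes, against at most 16.9 TPM in any other library, and with fewer genes above 0 (11325 to 13242, against 13406 to 15315). These values move with every comparison of dormant KO libraries given below, and their part in it was not tested. In such pooled samples fewer cells of a type and less RNA per cell cannot be told apart.

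**Figure D1:**
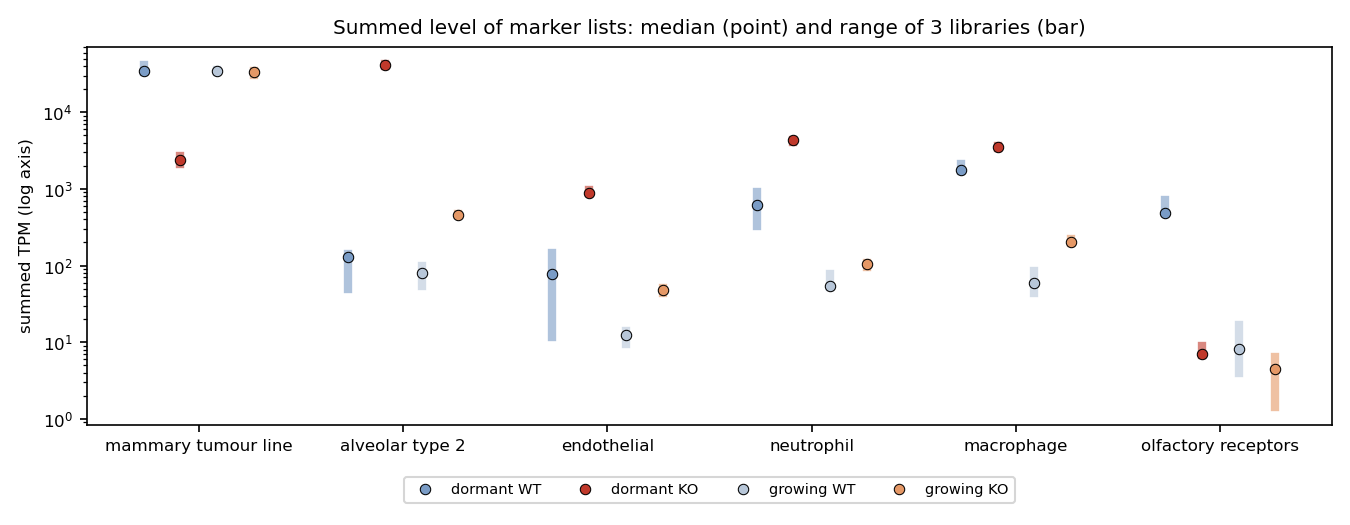
Summed TPM (log axis) of 6 marker lists in each group, with the median of 3 libraries as a point and their range as a bar. Dormant KO libraries lie lowest for the mammary tumor line list, at 2100.0 to 2654 TPM, and highest for the alveolar type 2, endothelial, neutrophil and macrophage lists, while olfactory receptors are highest in dormant WT.

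Together the 10 genes held 0.548% ± 0.0432 of all TPM in dormant WT, 0.179% ± 0.0482 in dormant KO, 0.539% ± 0.0128 for growing WT and 0.456% ± 0.0137 in growing KO (mean ± SD, n = 3 libraries). Dusp1 was the most abundant in all 4 groups and ranked 34th, 245th, 22nd and 45th of all genes by mean TPM in the same order. Jund was the least abundant, at 1.17 to 4.75 TPM over the 12 libraries. All 10 were thus present in dye-positive and dye-negative libraries of both hosts.

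**Figure D2:**
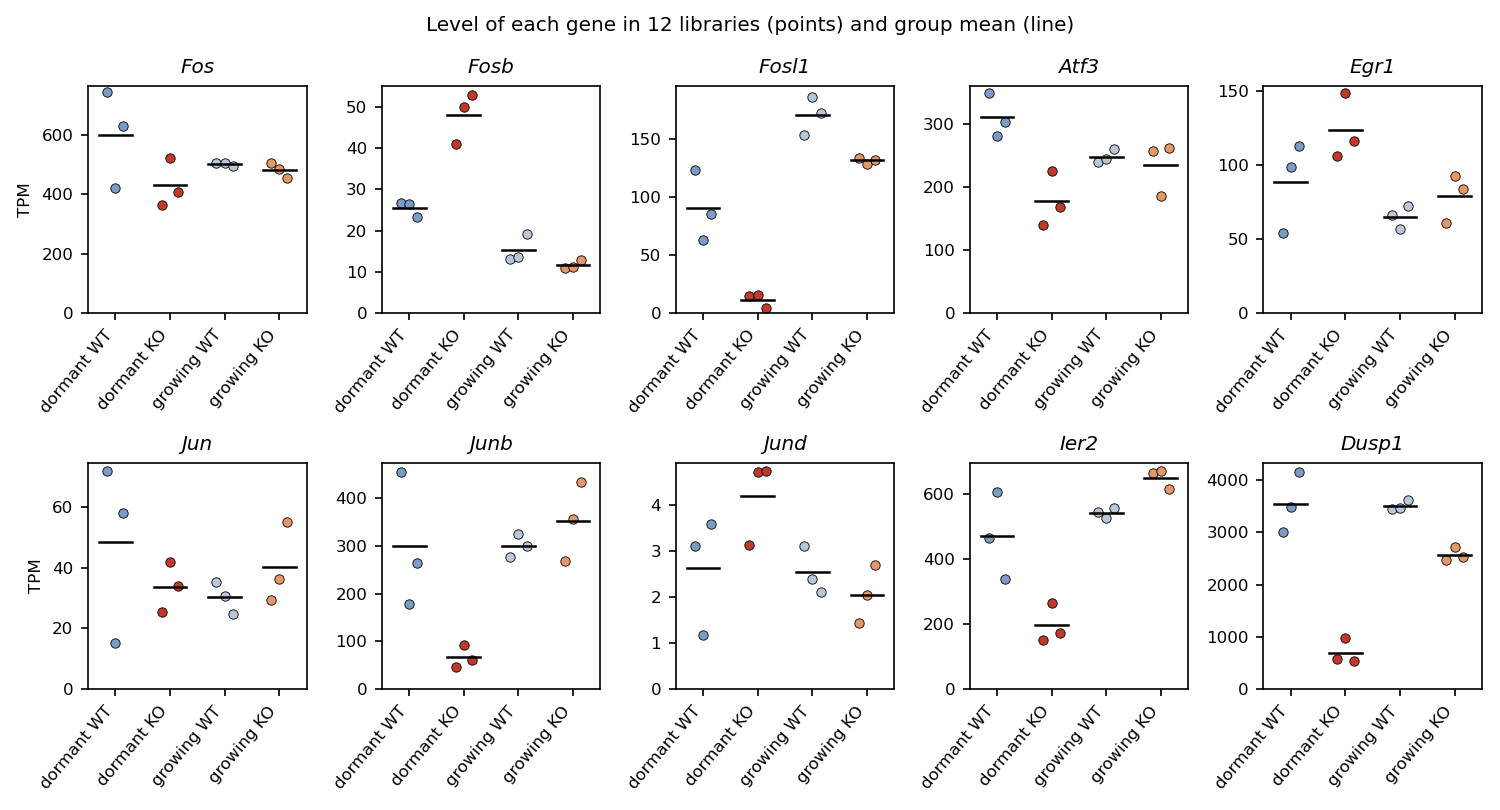
TPM of each of the 10 genes (linear axes from 0, a separate scale for each gene) in 12 libraries, with a point per library and a line at the mean of 3. Dusp1, Junb, Ier2 and Fosl1 are lowest in dormant KO, where Fosb is highest at 41.1 to 53.1 TPM, and the points of Fos overlap between groups of dormant cells.

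Dormant cells of KO and WT hosts were compared first. Dusp1, Junb, Ier2 and Fosl1 were lower in dormant KO than in dormant cells of WT hosts and no gene of the 10 was called higher, where a call needed a Benjamini-Hochberg adjusted p of at most 0.05 by limma over all 13002 genes tested and a difference of at least 1 on the log2(TPM + 1) scale. That is 4 of 10 called, against 22.3% of all genes tested, and 4 of 10 lower, against 9.39%. The median difference of the 10 genes was −0.64 and that of all genes 0.17. By TPM alone 5 of the 10 had all 3 dormant KO libraries under all 3 dormant WT libraries (Atf3 beside the 4 called), against 13% of all genes, and Fosb alone had them above, against 18.6%. Median-ratio scaling moved the median of all genes from 0.17 to 0.50, and on that scale 3 of the 10 were called lower and 2 higher, against 6.18% and 17.6% of all genes.

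Within KO hosts, dormant against growing, the same 4 genes were called lower and Fosb was called higher, which is 5 of 10 against 17.8% of all genes (9.48% lower and 8.31% higher). The medians were alike here, at −0.32 for the 10 genes and −0.32 for all genes. Dormant KO libraries lay wholly under growing KO libraries for 4 of the 10, against 28.3% of all genes, and wholly above for 3 (Fosb, Egr1 and Jund), against 16.4%. Both comparisons use the same dormant KO libraries and are therefore not independent of each other.

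In the other pairings the 10 genes gave no call. Dormant WT against growing WT gave 0 of 10 by limma, against 7.51% of all genes (1.85% higher and 5.67% lower), with 1 of the 10 at an unadjusted p under 0.05 and medians of 0.11 for the 10 genes and −0.35 for all genes. Its libraries lay apart, higher in dormant WT, for 2 of the 10 (Atf3 and Fosb), against 7.22% of all genes, and lower for Fosl1 alone, against 19.4%. Growing KO against growing WT gave 0 of 10, against 0.977% (0.715% higher and 0.261% lower), with 1 at an unadjusted p under 0.05 and medians of −0.08 and 0.02. There the libraries lay apart for 3 of the 10 that were lower in KO (Dusp1, Fosb and Fosl1), against 10.6%, and for Ier2 alone that was higher, against 13.3%. The interaction subtracts the state difference (dormant minus growing) seen in WT hosts from that seen in KO hosts. It was called for 4 of 10, against 10.1% of all genes, with 4 lower, against 3.91%, and 0 higher, against 6.18%. These 4 were again Fosl1, Junb, Dusp1 and Ier2. Host and batch cannot be told apart in these libraries.

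**Figure D3:**
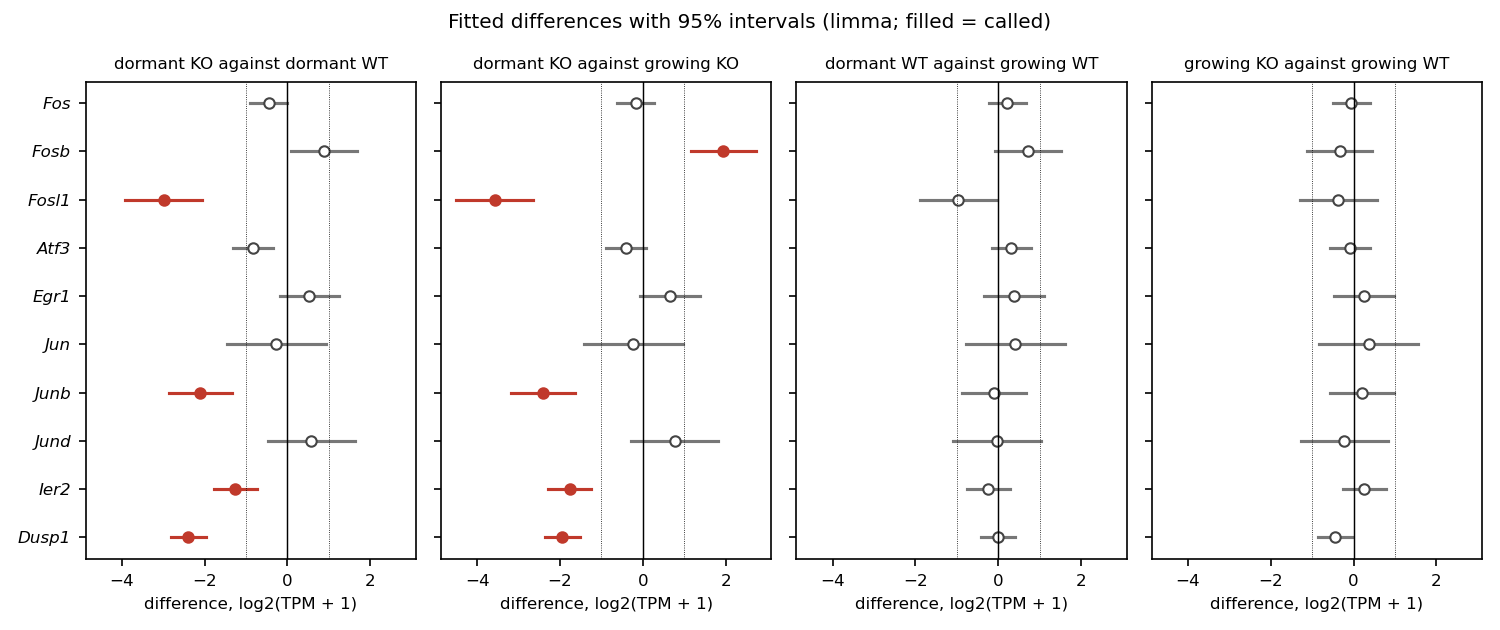
Fitted differences on the log2(TPM + 1) scale with 95% intervals (limma, 12 libraries) for the 10 genes in 4 comparisons, filled and red where called, with dotted lines at −1 and 1. Calls appear only in the 2 panels with dormant KO libraries, at −3.58 to −1.26 for the genes called lower and at 1.95 for Fosb against growing KO; the call of Ier2 against dormant WT is lost under median-ratio scaling.

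Dusp1 (ENSMUSG00000024190.6, in GENCODE M21 ENSMUSG00000024190.7 at chr17:26505590-26562128, minus strand, GRCm38) encodes a phosphatase of the nucleus that inactivates MAP kinases and so ends the signal that induced it. Its level was 3007, 3474 and 4153 TPM in dormant WT, 575, 975 and 534 TPM in dormant KO, 3439.6, 3462 and 3623 TPM in growing WT and 2476, 2711 and 2528 TPM in growing KO. The highest dormant KO library, at 975 TPM, was far under the lowest library of any other group, at 2476 TPM, and growing KO lay wholly under growing WT, while dormant WT and growing WT overlapped. The difference between dormant KO and dormant WT was −2.39 ± 0.19 (log2 scale, standard error; limma, adjusted p = 5.85e-06). Against growing KO it was −1.94 ± 0.19 (adjusted p = 4.42e-05). The lower level in growing KO than in growing WT, by 0.45 on the log2 scale, was not called (limma, adjusted p = 0.582), with an interval of −0.86 to −0.03. The difference of dormant WT from growing WT was 0.00 ± 0.19 (interval −0.41 to 0.42). Dusp1 thus had the smallest standard error of the 10 genes and the interaction with the lowest adjusted p, at −1.94 ± 0.27 (adjusted p = 0.00119). In GENCODE M21 Dusp1 overlaps Ergic1 on the opposite strand, and whether the gene version that was measured also does was not checked. Ergic1 was at 15.5 to 35.1 TPM in dormant KO and at 52.0 to 146 TPM in the other libraries. It was thus lowest in the same libraries, and its part in the Dusp1 values was not tested. Dusp1 also overlaps 2 genes on its own strand in GENCODE M21, whose gene IDs were not among those measured, and whether reads were counted by strand was not stated.

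Junb (ENSMUSG00000052837.6, chr8:84974484-84978718, minus strand) encodes a JUN family partner in AP-1 that often restrains JUN itself. Its level was 454, 179 and 265 TPM in dormant WT, 46.4, 93.6 and 60.5 TPM in dormant KO, 277, 325 and 299 TPM in growing WT and 268, 356 and 434 TPM in growing KO. Dormant KO lay apart from the other 3 groups, which overlapped each other. The fitted difference of dormant KO was −2.10 ± 0.35 from dormant WT (limma, adjusted p = 0.00104) and −2.41 ± 0.35 from growing KO (adjusted p = 0.00056), with an interaction of −2.31 ± 0.49 (adjusted p = 0.0119). Prdx2, an antioxidant enzyme gene on the opposite strand, overlaps Junb and was at 465 to 543 TPM in dormant KO and at 745 to 1390 TPM in the other libraries, so that it was lowest in the same libraries, and its part in the Junb values was not tested.

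Fosl1 (ENSMUSG00000024912.5, in GENCODE M21 ENSMUSG00000024912.6 at chr19:5447547-5455946, plus strand) encodes FRA-1, a FOS family protein known for its part in the invasion of mammary carcinoma cells. It stood at 122.8, 62.8 and 84.8 TPM in dormant WT, 14.3, 15.5 and 4.43 TPM in dormant KO, 154, 187 and 173 TPM in growing WT and 134, 129 and 132 TPM in growing KO. The 4 groups did not overlap at all, in the order growing WT, growing KO, dormant WT and dormant KO. Fosl1 had the largest differences of the 10 genes, −2.98 ± 0.43 for dormant KO against dormant WT (limma, adjusted p = 0.00037) and −3.58 ± 0.43 against growing KO (adjusted p = 0.000157). The difference of dormant WT from growing WT, −0.96 ± 0.43, was not called (adjusted p = 0.196), although the libraries were apart, nor was that of growing KO from growing WT, −0.37 ± 0.43 (adjusted p = 1). The interaction of −2.61 ± 0.60 passed (adjusted p = 0.0172), but without growing WT replicate 1 its adjusted p was 0.0510. In GENCODE M21 Ccdc85b overlaps Fosl1 on the opposite strand, and whether it overlaps the measured version was not checked. Ccdc85b was at 12.1 to 29.2 TPM in dormant KO and at 7.14 to 35.8 TPM in the other libraries, and its part in the Fosl1 values was not tested.

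Ier2 (ENSMUSG00000053560.4, chr8:84661331-84662852, minus strand, 1 exon) encodes a small nuclear protein induced with FOS by growth factors. Its level was 467, 607 and 339 TPM in dormant WT, 150.2, 266 and 173 TPM in dormant KO, 545, 526 and 557 TPM in growing WT and 665, 672 and 615 TPM in growing KO. Dormant KO was lowest with no overlap, and growing KO lay wholly above growing WT. The difference was −1.26 ± 0.24 against dormant WT (limma, adjusted p = 0.00223) and −1.77 ± 0.24 against growing KO (adjusted p = 0.000331). The former became −0.74 under median-ratio scaling and so fell short of the required size, and its adjusted p was 0.0563 when only the 2 dormant groups were fitted. An interaction of −1.52 ± 0.33 (adjusted p = 0.0132) likewise became −1.01 with an adjusted p of 0.0824 under median-ratio scaling.

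Fosb (ENSMUSG00000003545.3, chr7:19302696-19310051, minus strand) encodes a FOS family protein that is scarce in most resting tissue. Its level was 26.7, 26.6 and 23.3 TPM in dormant WT, 41.1, 50.1 and 53.1 TPM in dormant KO, 13.0, 13.6 and 19.1 TPM in growing WT and 10.98, 11.2 and 12.8 TPM in growing KO. The 4 groups did not overlap, in the order dormant KO, dormant WT, growing WT and growing KO, and the growing groups nearly touched. Dormant KO exceeded growing KO by 1.95 ± 0.36 (limma, adjusted p = 0.00266). The excess over dormant WT, 0.88 ± 0.36, was not called (adjusted p = 0.103), but reached 1.39 (adjusted p = 0.0136) under median-ratio scaling and 1.41 (adjusted p = 0.0196) under quantile normalization. The difference between dormant WT and growing WT was 0.72 ± 0.36 (adjusted p = 0.249).

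Fos (ENSMUSG00000021250.13, chr12:85473890-85477273, plus strand), the founding member of the family and the gene most used as a sign of recent stimulation, passed in none of the 5 comparisons. Its level was 747, 422 and 632 TPM in dormant WT, 365, 523 and 409 TPM in dormant KO, 505, 504 and 497 TPM in growing WT and 507, 484 and 456 TPM in growing KO. All 4 groups overlapped, and the 3 growing WT libraries agreed to within 1.01-fold. The difference of dormant KO from dormant WT was −0.45 (interval −0.89 to −0.01; limma, adjusted p = 0.136) and ranged from −0.68 to 0.07 over the alternatives, turning in sign under median-ratio scaling. Against growing KO it was −0.17 (interval −0.62 to 0.27).

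Atf3 (ENSMUSG00000026628.13, chr1:191170296-191218039, minus strand) encodes a stress-induced factor that pairs with JUN proteins. Atf3 had 349, 281 and 302 TPM in dormant WT, 139.7, 225 and 167 TPM in dormant KO, 239, 243 and 260.2 TPM in growing WT and 257, 186 and 262 TPM in growing KO. Dormant KO lay wholly under dormant WT and under growing WT, but overlapped growing KO. The difference of −0.83 ± 0.22 from dormant WT had an adjusted p of 0.0167 by limma and did not reach the required size. Without dormant KO replicate 2 it was −1.01 and was called, whereas under median-ratio scaling it was −0.31 (adjusted p = 0.305). Its adjusted p was also above 0.05 under quantile normalization, with only the groups compared, with array weights and without dormant KO replicate 1 or 3.

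Egr1 (ENSMUSG00000038418.7, chr18:34859823-34864984, plus strand), a zinc finger factor induced by growth factors and by shear or injury, had 53.7, 98.6 and 112 TPM in dormant WT, 106, 148 and 116 TPM in dormant KO, 66.2, 56.4 and 72.1 TPM in growing WT and 60.4, 92.6 and 83.3 TPM in growing KO. Dormant KO lay wholly above both growing groups and overlapped dormant WT. Neither the difference from dormant WT, 0.53 ± 0.33, nor that from growing KO, 0.65 ± 0.33, was called by limma (adjusted p = 0.285 and 0.209). Under median-ratio scaling both were, at 1.05 (adjusted p = 0.0436) and 1.24 (adjusted p = 0.0266).

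Jun (ENSMUSG00000052684.4, chr4:95049034-95052222, minus strand, 1 exon), the JUN protein that activates most AP-1 sites, had 71.8, 15.1 and 58.2 TPM in dormant WT, 25.4, 42.0 and 33.9 TPM in dormant KO, 35.1, 30.6 and 24.8 TPM in growing WT and 29.3, 36.4 and 54.98 TPM in growing KO. All 4 groups overlapped, and dormant WT replicate 2 was the lowest library of the 12. No comparison was called, and the interval of dormant KO against dormant WT ran from −1.46 to 0.93. Junos, an antisense RNA that overlaps Jun, was at 0 to 27.1 TPM. Jund (ENSMUSG00000071076.6, chr8:70698949-70700616, plus strand, 1 exon), a JUN protein usually present without stimulation, had 3.12, 1.17 and 3.6 TPM in dormant WT, 3.13, 4.72 and 4.75 TPM in dormant KO, 3.12, 2.40 and 2.11 TPM in growing WT and 1.43, 2.04 and 2.69 TPM in growing KO. It gave no call, and its interval for dormant KO against growing KO ran from −0.28 to 1.83.

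The genes within a family thus did not share a pattern, and ratios taken within each library, which do not change when a library is scaled by a constant factor, show this without reference to other genes. Fosb was 11.2%, 9.57% and 13.0% of Fos in dormant KO, against 3.57%, 6.29% and 3.68% in dormant WT, 2.57%, 2.70% and 3.85% for growing WT, and 2.16%, 2.32% and 2.82% in growing KO. Fosl1 was 3.91%, 2.96% and 1.08% of Fos in dormant KO, against 16.4%, 14.9% and 13.4% in dormant WT, 30.4%, 37.0% and 34.7% for growing WT, and 26.4%, 26.6% and 29.0% in growing KO. Junb was 1.83, 2.23 and 1.78 times Jun in dormant KO, against 6.33, 11.9 and 4.56 times in dormant WT. In each of these ratios dormant KO lay apart from the other 3 groups. Between dormant KO and dormant WT the log2 ratio of Fosb to Fos differed by 1.36, and those of Fosl1 to Fos and of Junb to Jun by −2.68 and −1.86. Each of these had an exact permutation p of 0.1 (two-sided, 12 such comparisons made), which is the smallest that 3 against 3 libraries can give, so no such test can reach 0.05. For Fosl1 to Fos, dormant WT was also apart from growing WT, at −1.19 on the log2 scale.

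**Figure D4:**
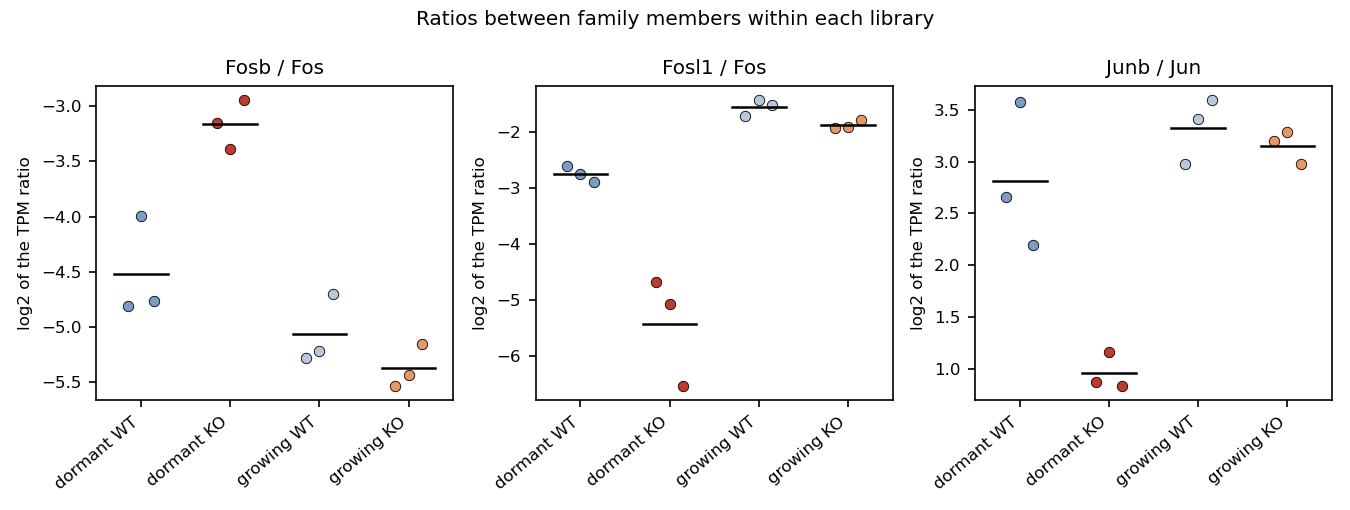
Log2 of the TPM ratio of Fosb to Fos, Fosl1 to Fos and Junb to Jun in each of 12 libraries (points), with the mean of 3 (line). Dormant KO libraries lie above all others for Fosb to Fos and below all others for the other ratios, with mean differences from dormant WT of 1.36, −2.68 and −1.86.

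The sums over the families moved with their most abundant members. Fos, Fosb and Fosl1 together were at 716 ± 193 TPM in dormant WT, 492 ± 87.2 TPM in dormant KO, 688 ± 16.8 TPM in growing WT and 626 ± 25.5 TPM in growing KO (mean ± SD, n = 3). Jun, Junb and Jund together were at 351 ± 168, 105 ± 33.1, 333 ± 22.2 and 395 ± 96.1 TPM. The FOS family was 4.84 ± 0.716 times the JUN family in dormant KO and 1.66 to 2.19 times in the means of the other groups. Dusp1 was 1.58 ± 0.278 times Fos in dormant KO, against 6.27 ± 2.12 times in dormant WT, 6.99 ± 0.257 times in growing WT and 5.34 ± 0.399 times in growing KO.

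Promoter sequences are shown for Dusp1 and Junb, which were lower in dormant KO, and for Fos, which was not called. They are RefSeq sequences (GRCm38.p6) upstream of the transcription start, 5′ to 3′ on the strand of the gene, without bases that GENCODE M21 places in an exon of the gene. Dusp1 is given from chr17:26508520-26508722 (minus strand), Junb from chr8:84978749-84978998 (minus strand) and Fos from chr12:85473640-85473889 (plus strand). Capitals mark TGACGTCA, the full cAMP response element, and its part TGACG (or CGTCA on the other strand), which is found inside it.
Dusp1: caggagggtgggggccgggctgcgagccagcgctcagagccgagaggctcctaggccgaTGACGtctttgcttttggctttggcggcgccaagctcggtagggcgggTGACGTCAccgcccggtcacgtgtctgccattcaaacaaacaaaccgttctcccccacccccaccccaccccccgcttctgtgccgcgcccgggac
Junb: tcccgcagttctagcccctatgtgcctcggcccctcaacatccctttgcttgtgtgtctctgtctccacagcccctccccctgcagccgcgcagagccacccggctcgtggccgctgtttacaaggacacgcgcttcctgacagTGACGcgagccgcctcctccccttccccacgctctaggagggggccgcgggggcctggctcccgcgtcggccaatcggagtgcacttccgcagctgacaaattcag
Fos: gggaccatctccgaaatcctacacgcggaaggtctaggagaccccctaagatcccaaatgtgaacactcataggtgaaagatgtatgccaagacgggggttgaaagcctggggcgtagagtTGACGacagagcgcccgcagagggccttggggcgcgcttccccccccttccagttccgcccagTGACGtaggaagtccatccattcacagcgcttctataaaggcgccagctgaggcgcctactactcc
TGACGTCA was found in the Dusp1 window only, at bases −143 to −136 from the RefSeq start, among the 7 of the 10 genes with a promoter searched, and it is present in 1.56% of 32536 promoter windows of the same length (250 bases, both strands). TGACG was found 3 times in Dusp1 (the full element counts for 2 of these), 2 times in Fos and 1 time in each of Junb, Fosb and Atf3, and in 17.9% of all windows on either strand. The search covered all 250 bases, also those left off the printed sequences as exonic, and the match in Atf3 (bases −7 to −3) lies in such bases. It was searched for after the sequences had been seen. The AP-1 site TGANTCA (6.73% of windows) and the CArG box of serum response factor (1.48%) were in none of the 7 windows. Bases farther upstream than 250 and sites that depart from these patterns were not searched. Fosl1, Ier2 and Egr1 were not searched. For Junb and Jund the RefSeq start lies outside the GENCODE gene, upstream of it.

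The wider response was read from 8 lists of related genes, of which 109 genes were tested. In dormant KO against dormant WT 12 of the 109 were called higher and 21 lower, but 19 higher and 14 lower under median-ratio scaling, so that the balance of directions rests on the scaling. The 12 higher are 11.0% of the lists, near the 12.9% of all genes called higher, and the 21 lower are 19.3%, against 9.39%. On the median-ratio scale the lists had 17.4% higher and 12.8% lower, against 17.6% and 6.18% of all genes. Medians on the main scale were −0.17 for the 109 and 0.17 for all genes. In dormant KO against growing KO 6 were higher and 19 lower (5.5% and 17.4%, against 8.31% and 9.48% of all genes), and under median-ratio scaling 11 and 11 (10.1% each, against 11.5% higher and 5.1% lower of all genes). Growing KO against growing WT gave 0 higher and 2 lower (Spry2 and Dnajb1), against 0.715% and 0.261% of all genes, and dormant WT against growing WT gave 2 higher and 5 lower, against 1.85% and 5.67%. The calls of dormant KO were spread over most lists, and in the list of serum response factor and its partners 0 of 5 were called by limma in these comparisons on the main scale, and 2 of 5 lower against dormant WT under quantile normalization, where 11.6% of all genes were lower.

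**Figure D5:**
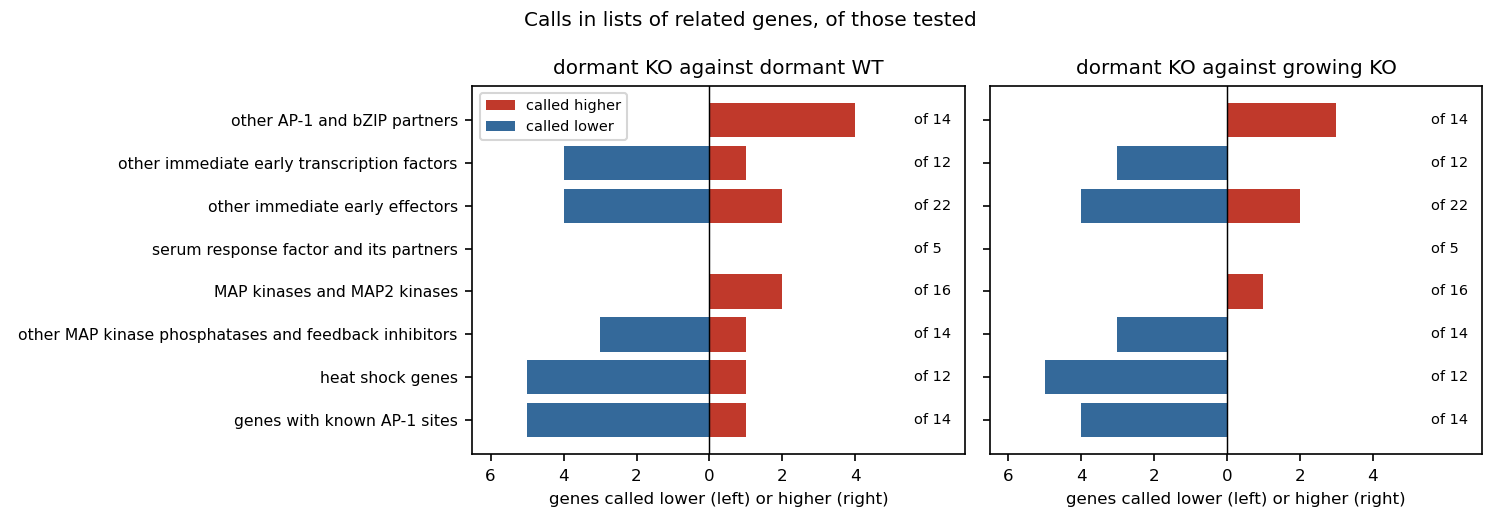
Number of genes called lower (bars to the left) and higher (bars to the right) by limma in 8 lists of related genes, of the number tested at the right, for dormant KO against dormant WT and against growing KO. Against dormant WT 21 of 109 are lower and 12 higher, a balance that turns to 14 lower and 19 higher under median-ratio scaling.

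The calls between the dormant groups of the genes named next were the same under median-ratio scaling and quantile normalization, except that Egr2 and Hspa1b were not called under the latter. Among 12 other immediate early transcription factors, 4 were lower and 1 higher in dormant KO, against dormant WT throughout (33.3% and 8.33%, where 9.39% of all genes were lower and 12.9% higher). Nr4a1, an orphan nuclear receptor, was at 8.85, 33.4 and 31.5 TPM in dormant KO against 255, 65.2 and 109 TPM in dormant WT (−2.46 ± 0.54; limma, adjusted p = 0.00589). Myc, a driver of growth, was at 36.7, 50.3 and 60.2 TPM against 299, 72.1 and 232 TPM (−1.81 ± 0.43, adjusted p = 0.00891), and at 310 to 495 TPM over the growing libraries of both hosts. Egr2, the relative of Egr1, was called higher, at 4.28, 1.27 and 2.44 TPM in dormant KO, while it was listed at 0 in all 3 dormant WT libraries.

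Of 22 other immediate early effectors, 4 were lower and 2 higher (18.2% and 9.09%, against 9.39% and 12.9% of all genes), a balance that turned to 3 lower and 4 higher under median-ratio scaling (13.6% and 18.2%, against 6.18% and 17.6% of all genes on that scale). Cyr61, a secreted matrix protein, was lower, with 102, 171 and 129 TPM in dormant KO against 914, 879 and 1300.1 TPM in dormant WT (−2.94 ± 0.20; limma, adjusted p = 2.33e-06). Plk2, a polo-like kinase, was at 16.2, 30.0 and 23.4 TPM against 301, 264 and 427 TPM (−3.79 ± 0.29, adjusted p = 4.88e-06). Ctgf, of the same protein family as Cyr61, was higher, with 9.74, 51.2 and 30.6 TPM in dormant KO, and it was listed at 0 in the 3 dormant WT libraries. The pair therefore went in opposite directions.

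The 14 genes with known AP-1 sites gave 5 lower and 1 higher (35.7% and 7.14%, against 9.39% and 12.9% of all genes), and 3 lower and 1 higher under median-ratio scaling (21.4% and 7.14%, against 6.18% and 17.6%). Mmp10 and Mmp3, secreted proteases of the matrix, had the largest differences of the genes named from the lists. Mmp10 had 683, 873 and 728 TPM in dormant WT, 2.47, 0.22 and 11.1 TPM in dormant KO and 279 to 402 TPM over the growing libraries (−7.67 ± 0.61 between the dormant groups; limma, adjusted p = 5.67e-06). Mmp3 had 183, 158 and 654 TPM in dormant WT and 3.13, 1.35 and 5.37 TPM in dormant KO (−6.08 ± 0.58, adjusted p = 2.51e-05), and it was also higher in dormant WT than in growing WT (2.37 ± 0.58, adjusted p = 0.0289). Ccnd1, cyclin D1, was at 7.62, 2.92 and 7.66 TPM in dormant KO against 76.9, 22.9 and 90.2 TPM in dormant WT (−3.06 ± 0.56, adjusted p = 0.0019).

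Of 14 other MAP kinase phosphatases and feedback inhibitors, 3 were lower and 1 higher (21.4% and 7.14%, against 9.39% and 12.9% of all genes). Dusp2, a phosphatase of the same family as Dusp1, was at 11.6, 7.78 and 9.24 TPM against 86.2, 36.5 and 29.9 TPM (−2.16 ± 0.44; limma, adjusted p = 0.00367). Spry2, an inhibitor of receptor tyrosine kinase signals, followed the host and not the state, being lower in KO by 1.60 on the log2 scale in dormant libraries (adjusted p = 0.000304) and by 1.60 in growing libraries (adjusted p = 0.00502). Its levels were 184 to 218 TPM over the 6 WT libraries and 60.4 to 81.4 TPM over the 6 KO libraries, which were also in different batches. Of 16 MAP kinases and their upstream kinases 2 were higher, Mapk13 and Mapk12, both listed at 0 in dormant WT (12.5%, against 12.9% of all genes), and 4 were higher under median-ratio scaling (25%, against 17.6%).

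Of 14 other AP-1 and bZIP partners, 4 were higher and 0 lower (28.6%, against 12.9% of all genes higher), with a median difference of 1.18 that became 0.68, with 3 called higher, under quantile normalization (21.4%, against 11.6% of all genes). Batf, a partner of JUN proteins in lymphocytes, was listed at 0 in the dormant WT libraries and reached 31.3, 32.1 and 61.6 TPM in dormant KO, the libraries in which T and NK cell markers summed to 231 to 376 TPM, against at most 26.6 TPM elsewhere. Of 12 heat shock genes, which respond to stress on proteins, 5 were lower and 1 higher (41.7% and 8.33%, against 9.39% and 12.9% of all genes), but 2 lower and 3 higher under median-ratio scaling (16.7% and 25%, against 6.18% and 17.6%). The median of the list moved from −0.36 to 0.07 with that scaling, and that of all genes from 0.17 to 0.50. Hspa8, a constitutive chaperone, was at 535, 1125 and 520.4 TPM in dormant KO against 2516, 2223 and 2103 TPM in dormant WT (−1.74 ± 0.23, adjusted p = 0.000204). The higher gene, Hspa1b, has the near-identical copy Hspa1a, so that the split of reads between these is uncertain.

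The median spread between replicates was smaller for the 10 genes than for all genes tested. The median SD of log2(TPM + 1) over the 10 genes was 0.45 in dormant WT, 0.35 in dormant KO, 0.13 in growing WT and 0.20 in growing KO, against 0.999, 0.57, 0.34 and 0.44 over all genes tested. Over genes with a mean of at least 10 TPM in the group it was 1.13, 0.42, 0.23 and 0.28, so that the gap was narrower in all groups but dormant WT. The largest SD was that of Jun in dormant WT, at 1.18, and the smallest that of Fos in growing WT, at 0.012.

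Likeness of pattern was described by the root mean square difference between profiles of log2(TPM + 1) over the 12 libraries, each centred on its mean. Fos and Atf3 were the closest pair of the 10, at 0.22, and Fosb and Fosl1 the farthest, at 2.31. Over all genes tested, Fos was closest to mt-Atp8 (0.15), Atf3 to Ubb (0.18), Dusp1 to Pebp1 (0.23), Ier2 to Drg1 (0.22), Junb to Anxa2 (0.28), Fosb to Lars2 (0.30) and Fosl1 to Tpgs2 (0.43). The profiles share libraries and scaling, and with 12 libraries in 4 groups they carry no test.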

How the data were processed

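RNA was measured in 12 libraries of sorted D2A1 cells. The authors trimmed reads with Cutadapt, aligned them to mm10 with STAR 2.5.2b and estimated gene levels with RSEM, and the deposited values are TPM on a GENCODE annotation. The submitters' processing notes give RSEM 1.3.3 and cutadapt 1.18. Their labels name a TruSeq mRNA kit, whereas the methods describe aliquots of sorted cells and a Smart-seq protocol. Whether strand was used in counting is not given in the sources used here. TPM keeps no depth, so no counting interval was computed, and precision is the spread of 3 libraries per group. A further 30 per-sample columns were not used, 6 of them named as WT libraries of batch 2.

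Values were transformed to log2(TPM + 1), and the 13002 genes with at least 1 TPM in at least 3 libraries were fitted with limma 3.58.1 in R 4.3.3 (eBayes with a trend, 1 mean per group, 8 residual degrees of freedom, two-sided). P-values were adjusted by Benjamini-Hochberg over all genes tested, and a call needed an adjusted p of at most 0.05 and a difference of at least 1. This scale understates changes of low genes. The count model of the authors, DESeq2, was not used because TPM are not counts. The fit was tested on simulated data. Coordinates and overlaps of genes are from GENCODE M21 (GRCm38), where Dusp1 and Fosl1 have a later version than in the measured levels. Of each list, up to 3 called genes per direction with the largest difference and no overlap between groups could be named. The 10 genes, the 8 lists and the marker lists were chosen with earlier results of these data known. Alternatives changed the pseudocount (0.1 or 5), the filter (none, or 5 TPM), the scaling (median-ratio or quantile), the samples fitted (only the groups compared, or all but 1 library) or the model (array weights, or a replicate block).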

Additional observations from a re-analysis of the deposited data

Results flagged for a closer look

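The dormant against growing difference differed between KO and WT hosts for 4 of the 10 genes by the interaction term of limma, with Benjamini-Hochberg adjustment over 13002 genes. All 4 were called lower, where 3.91% of all genes were lower and 10.1% were called in either direction. The interaction was −2.61 for Fosl1 (adjusted p = 0.0172), −2.31 for Junb (adjusted p = 0.0119), −1.52 for Ier2 (adjusted p = 0.0132) and −1.94 for Dusp1 (adjusted p = 0.00119). That of Ier2 was not called under median-ratio scaling (−1.01, adjusted p = 0.0824), nor that of Fosl1 without growing WT replicate 1 (adjusted p = 0.0510). Host and library batch are the same split in the 12 libraries used, so these cannot be told apart in them, and the marker levels of the dormant KO libraries move with all 4.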

How the results depend on the processing

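Over 21 alternatives (20 for the interaction), the number of the 10 genes called stayed within 1.5 times its main value in all 5 comparisons. Leaving out 1 library at a time gave 4 to 5 calls for dormant KO against dormant WT, 5 for dormant KO against growing KO, 0 for both other pairings and 3 to 4 for the interaction. The calls over all genes in these refits ran from 2160 to 3617 between the dormant groups and from 1551 to 3117 within KO hosts. They ran from 861 to 1937 for the interaction, where 12487 to 12823 genes were tested. Calls of single genes that changed are given with the genes above, and they concern Ier2, Fosb, Egr1, Atf3 and Fosl1; the interaction of Fosb was also called under median-ratio scaling (1.72, adjusted p = 0.0485), and the cause of these changes was not tested. No called difference turned in sign. Signs turned in 28 of 1035 refits, all of differences called in neither fit, at most 0.80 in size as reported and at most 0.97 when refitted. Under median-ratio scaling these were Fos against dormant WT (0.068), against growing KO (0.42) and in the interaction (0.13), Jun in dormant KO against dormant WT (0.24) and growing KO (0.35), Atf3 against growing KO (0.18) and Jund between the WT groups (0.020). Under quantile normalization they were Fos (0.075) and Jun (0.19) against growing KO, Jun (0.070) and Jund (−0.32) against dormant WT, Dusp1 (−0.43), Junb (0.063) and Jund (0.97) between the WT groups and Jund in the interaction (−0.072), and Jund between the WT groups also at a pseudocount of 5 (0.0041) and with array weights (0.060). With a library left out the values were −0.12 to 0.12 for Dusp1, −0.46 to 0.21 for Junb, −0.0042 to 1.09 for Jun and −0.23 to 0.31 for Jund between the WT groups, −0.18 to 0.068 for Atf3 between the growing groups, −0.94 to 0.15 for Jun between the dormant groups, −0.42 to 0.019 for Jun in KO hosts, and −0.047 to 0.48 for the interaction of Egr1. The replicate block gave 4, 0, 0, 5 and 4 calls, as without it. After each gene's group mean was subtracted, same-numbered libraries of different groups correlated at −0.015 to 0.021. Differently numbered ones correlated at −0.029 to 0.033, so the numbers were not read as pairs. The background counts were less stable. Dormant KO against dormant WT went from 2898 to 1680 genes with only the groups compared and 1418 with array weights, dormant KO against growing KO from 2313 to 3586 with array weights, and growing KO against growing WT from 127 to 308, 516 and, without growing KO replicate 2, 66. Dormant WT against growing WT went from 977 to 637 without a filter, 310 with array weights, 1918 without dormant WT replicate 1 and 447 without growing WT replicate 3, and the interaction from 1312 to 861 without dormant KO replicate 1. The share of higher calls moved from 57.9% to 74% under median-ratio scaling for dormant KO against dormant WT, from 46.7% to 69.2% for dormant KO against growing KO, and from 61.2% to 79.1% for the interaction. For dormant WT against growing WT it moved from 24.6% to 50.6% under quantile normalization. Depth is unknown, so counting error at low levels such as those of Jund cannot be separated from other spread.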
